A study of Mus musculus with 35 samples.

Results

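Axonemal dyneins are the motors that bend motile cilia and sperm flagella, and 10 genes for their heavy chains, *Dnah1*, *Dnah2*, *Dnah3*, *Dnah5*, *Dnah6*, *Dnah8*, *Dnah9*, *Dnah10*, *Dnah11* and *Dnah17*, were followed here across mouse tissues. They were picked by symbol, with earlier results of these data known but no threshold on a value, and together they were counted on 12 of the 55356 features of the deposited count table. The table came from a hybrid survey that paired short-read RNA-seq with long-read Iso-seq in order to describe transcribed pseudogenes. RNA was taken from adult C57BL/6J mice of both sexes that carried no labelled treatment or engineered allele. There were 29 RNA-seq libraries in 10 groups: female and male brain, cerebellum, heart and colon, the female gonad (ovary) and the male gonad (testis), with 3 libraries in each group and 2 in male heart. A further 6 Iso-seq flow cells entered only through the transcript models that were counted. Testis and ovary RNA were sequenced separately there, and somatic RNA as a pool in each sex. The labels do not say that the libraries of a group came from separate animals, so every p-value below measures the spread between these libraries only.

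Each heavy chain carries a ring of ATPase domains and a stalk that walks along the neighbouring microtubule doublet, and the heavy chains sort into outer arm and inner arm dyneins. In mammals the outer arm holds a gamma-type heavy chain (*Dnah5* in cilia, *Dnah8* in sperm flagella) and a beta-type heavy chain (*Dnah9* and *Dnah11* in cilia, *Dnah17* in sperm flagella). Among the inner arms, *Dnah2* and *Dnah10* form the pair of heavy chains of dynein f, while *Dnah1*, *Dnah3* and *Dnah6* belong to the inner arm dyneins with a single heavy chain. Testis holds the spermatids that build flagella, brain and cerebellum samples can hold ependymal and choroid plexus cells with motile cilia, an ovary sample can carry oviduct cells, and heart and colon have no known motile cilia.

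The 10 genes were not counted over equal parts of their length. *Dnah5* (chr15:28203752-28472052, plus strand, mm10), *Dnah9* (chr11:65831282-66168551, minus) and *Dnah11* (chr12:117877982-118199043, minus) were counted on complete ENSEMBL models of 15637, 15949 and 14458 exonic bases. The other 7 genes were counted on loci built from Iso-seq reads, which cover 16.3% to 32.9% of the reference exons at their main locus. These loci lie at the 3′ end of the gene for *Dnah8* (chr17:30752923-30875761, 6519 exonic bases), *Dnah2* (chr11:69420817-69433110, 2469 bases), *Dnah10* (chr5:124819915-124834302, 2860 bases) and *Dnah6* (chr6:73017610-73075904, 3859 bases), and at the 5′ end for *Dnah3* (chr7:120059026-120095280, 3213 bases). *Dnah1* and *Dnah17* each have a pair of loci, one at the 3′ end (chr14:31260386-31272387 and chr11:118023078-118046228) and one at the 5′ end (chr14:31308704-31323904 and chr11:118124606-118130681). Levels below are FPKM, the reads per kilobase of counted exon after scaling by each library's summed counts, and the 2 loci of *Dnah1* and of *Dnah17* were summed for the level of the gene.

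The start regions of these genes are shown because the testis and cilium patterns below divide them, and because the RFX factors, which bind the X-box, and the forkhead factor FOXJ1 are known regulators of ciliary genes. RefSeq promoters (250 bases before to 50 after the start site, GRCm38.p6) were found for 9 of the 10 genes, all but *Dnah3*. Each 100-base stretch lies upstream of the RefSeq start, holds no annotated exon and is written on the strand of the gene. Capitals mark the X-box, the RFX half-site GTTGCC, its core GTTGC or the forkhead site GTAAACA, on either strand.
Dnah17, chr11:118129321-118129420, minus: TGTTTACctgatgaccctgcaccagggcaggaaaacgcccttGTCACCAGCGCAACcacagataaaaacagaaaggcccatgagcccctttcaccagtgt
Dnah5, chr15:28203626-28203725, plus: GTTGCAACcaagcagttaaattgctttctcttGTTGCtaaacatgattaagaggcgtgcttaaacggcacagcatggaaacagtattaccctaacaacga
Dnah9, chr11:66168552-66168651, minus: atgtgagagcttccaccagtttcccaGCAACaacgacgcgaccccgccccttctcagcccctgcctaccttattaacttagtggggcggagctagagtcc
Dnah10, chr5:124724985-124725084, plus: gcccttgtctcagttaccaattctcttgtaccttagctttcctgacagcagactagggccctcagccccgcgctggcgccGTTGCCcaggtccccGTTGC
Dnah6, chr6:73221652-73221751, minus: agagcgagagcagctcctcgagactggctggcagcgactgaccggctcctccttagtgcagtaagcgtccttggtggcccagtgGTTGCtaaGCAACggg
Dnah8, chr17:30626835-30626934, plus: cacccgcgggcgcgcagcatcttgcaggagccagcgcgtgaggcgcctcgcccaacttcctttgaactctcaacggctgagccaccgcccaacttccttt
Dnah11, chr12:118199044-118199143, minus: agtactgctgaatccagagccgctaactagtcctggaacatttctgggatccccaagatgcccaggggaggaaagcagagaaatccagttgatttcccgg
The core GTTGC, which was chosen after these letters had been read and lies within GTTGCC, occurred in 7 of the 9 promoters, against 35.4% of 27025 promoters of the same length. *Dnah17* alone held an X-box, which 2.17% of all promoters hold, and alone held the forkhead site, which 3.55% hold. *Dnah10* alone held GTTGCC, against 12.7% of all promoters, at positions -20 and 10 counted from the start site. In *Dnah6* the core stood in an inverted pair at positions -36 and -28. *Dnah8* and *Dnah11* held none of these motifs in this window, and none of the 9 promoters held TATAAA, against 14.2% of all promoters. The letters TGACGTC, searched as a CRE half-site, occurred in *Dnah6* alone, in overlapping matches on the 2 strands at positions -175 and -174, against 3.33% of all promoters. These matches describe letters only, and no binding was measured.

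Total counts ranged from 11742417 to 36194255 per library, with a median of 24403774, so that 1 count weighs most in the shallowest library. The 8 spermatid markers that could be used summed to 22630 to 26900 FPKM in testis and to at most 32.8 in any other library. Neuron, cerebellum, cardiomyocyte and colon epithelium markers were each highest in every library of the tissue they name. The ovary list summed to 139 to 239 FPKM in ovary and 127 to 241 in heart, but *Zp1*, *Zp3*, *Fshr* and *Cyp19a1* were at 0 in all 5 heart libraries, and no gene of the list was at 0 in all 3 ovary libraries. Markers of multiciliated and ependymal cells summed to 22.0 to 76.0 FPKM in brain, 52.1 to 84.1 in cerebellum, 4.33 to 6.93 in ovary, 1.27 to 4.09 in colon and 0.182 to 1.87 in heart. They summed to 1393 to 1546 in testis, where spermatids use many of the same genes. *Ccdc153*, *Tmem212* and *1110017D15Rik* of that list were at 0 in every heart library. Female heart replicate 3 stood apart from the other heart libraries, with the highest sums of 9 of the 11 marker lists, among them multiciliated cell (1.87 FPKM), oviduct (25.1, against 5.36 to 8.74), neuron (7.96) and spermatid markers (1.10). It had the lowest sums of the ovary list and of cardiomyocyte markers (9923 FPKM, against 14530 to 16940), and a TMM factor of 1.12 against 0.604 to 0.712.

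In all, 7 of the 10 genes were higher in each of the 3 testis libraries than in any of the 26 others: *Dnah8*, *Dnah17*, *Dnah2*, *Dnah10*, *Dnah1*, *Dnah3* and *Dnah6*. Of all 29911 tested features, 23.3% had the 3 testis libraries on top in the same way. The remaining 3, *Dnah5*, *Dnah9* and *Dnah11*, had brain or cerebellum libraries above testis. These sets are also the genes counted on Iso-seq loci and on ENSEMBL models, respectively, and the 2 divisions cannot be told apart here. Iso-seq read testis RNA on its own but somatic RNA as pools. The part of this in which genes have Iso-seq loci was not tested. In whole tissue, moreover, fewer cells of a type and less RNA per cell cannot be told apart.

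**Figure D1:**
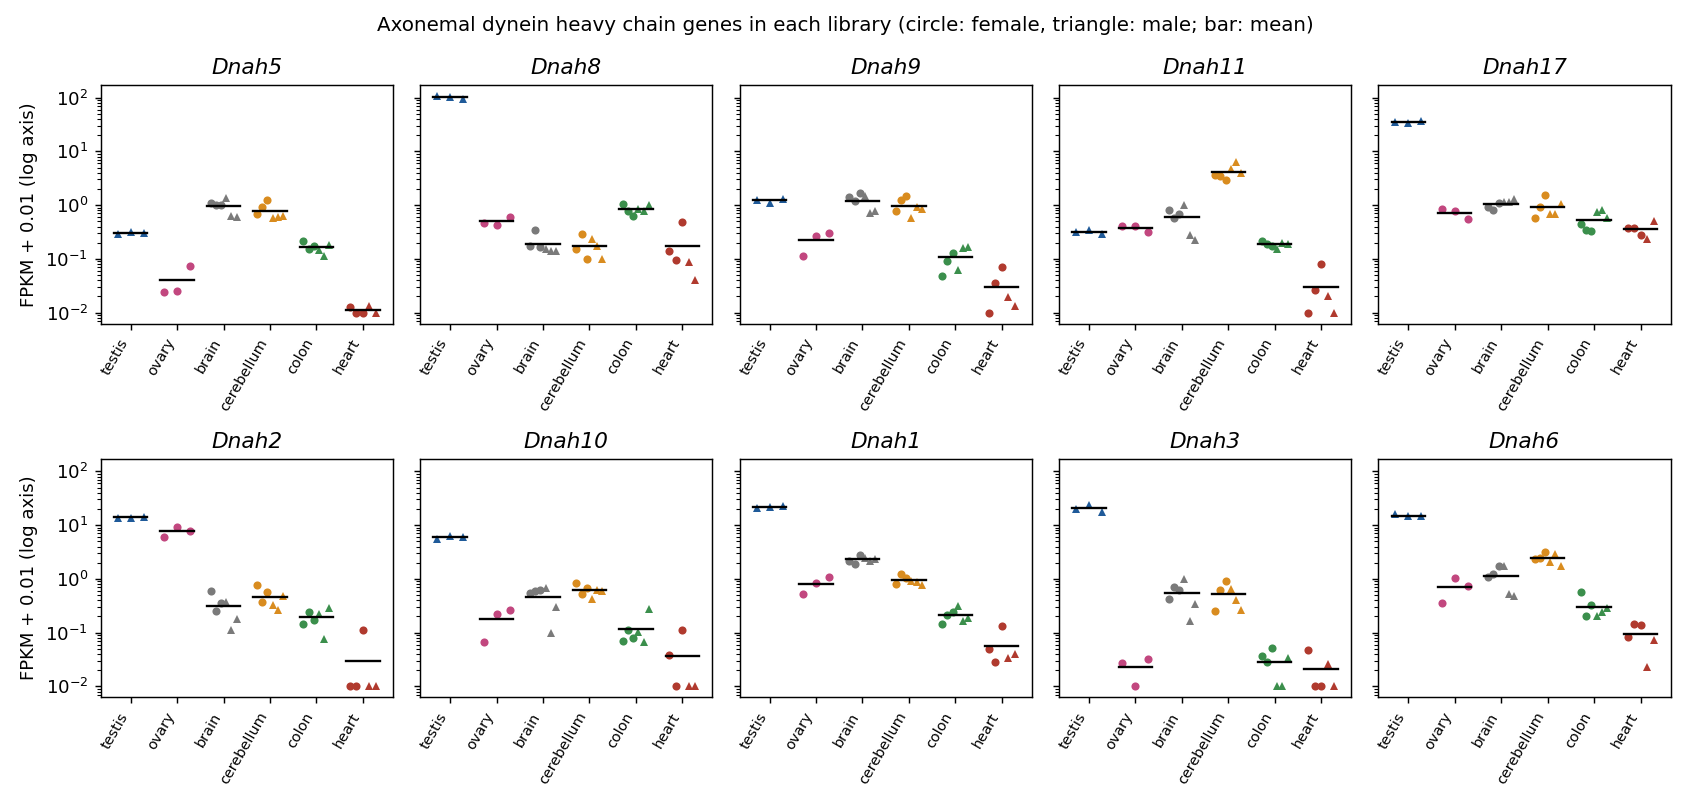
Level of each heavy chain gene in every library, as FPKM plus 0.01 on a log axis, by tissue; circles are female and triangles male libraries, and bars are tissue means. *Dnah8* stood at 93.1 to 108 FPKM in testis and at most 1.06 elsewhere, whereas *Dnah11* was highest in cerebellum at 2.90 to 6.44 FPKM.

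Tissue specificity was summarised with the index tau, which is 0 for a gene with equal means in the 6 tissues and 1 for a gene found in 1 tissue. It was 0.996 for *Dnah8*, 0.990 for *Dnah3*, 0.980 for *Dnah17*, 0.960 for *Dnah1*, 0.954 for *Dnah10* and 0.938 for *Dnah6*. *Dnah11* reached 0.929 with its highest mean in cerebellum, *Dnah2* 0.876, *Dnah5* 0.735 with its highest mean in brain, and *Dnah9* 0.586. Over the 24678 features with a tissue mean of at least 1 FPKM, the median was 0.734, and 28.5% were highest in testis.

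In testis, 11 of the 12 heavy chain features were called higher than the average over the 9 other groups (adjusted p under 0.05), none was called lower, and *Dnah11* was not called (log2 0.37, edgeR adjusted p = 0.355). Among all tested features, 40.6% were called higher and 26.7% lower. The median log2 difference of the 12 was 5.63, or 5.43 when each group without a count was set to 3 counts, and that of all features was 0.11. The log2 difference was 8.90 for *Dnah8*, 8.46 for *Dnah3*, 5.47 and 5.40 for the 3′ loci of *Dnah17* and *Dnah1*, 5.14 for *Dnah6*, 2.83 for *Dnah9* and 1.81 for *Dnah5*. *Dnah2*, *Dnah10* and both 5′ loci were also called, but each had a group without a count, so no fitted value is given for them. Against brain, 9 of the 12 were called higher in testis, 1 lower and 2 neither, with 40.4% of all features called higher and 31.2% lower. The median of the 12 was 4.36 on the log2 scale, against 0.22 over all features. Against ovary, 11 were called higher and none lower, with 37.8% and 26.5% of all features, and a median of 5.33 against 0.15. The call was lost for the 5′ locus of *Dnah17* with DESeq2 (adjusted p = 0.0663) and for *Dnah2* without TMM (edgeR adjusted p = 0.0817).

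*Dnah8*, the gamma-type outer arm heavy chain of flagella, had the highest level of the 10 genes in testis. Its 3 testis libraries held 108, 101 and 93.1 FPKM, from 18664 to 20308 counts each. Dividing by all reference exons leaves out the reads on the exons that were not counted, and so understates the level of *Dnah8*. It gave 24.5 FPKM for its testis mean of 100.6, and in the same way 11.2 for *Dnah17*, 10.6 for *Dnah1*, 4.62 for *Dnah3*, 4.37 for *Dnah6*, 2.30 for *Dnah2* and 1.05 for *Dnah10*. Brain libraries ranged from 0.131 to 0.328 FPKM with a median of 0.150, and cerebellum libraries from 0.0876 to 0.281 with a median of 0.151. No library outside testis came near, and the lowest testis library was 88.0 times the highest other, a female colon library at 1.06. The log2 difference was 9.39 against brain (SE 0.33, edgeR adjusted p = 2.22e-18) and 8.32 against ovary (SE 0.42, edgeR adjusted p = 1.01e-14). Outside testis the order was colon (0.842 ± 0.161 FPKM, SD, n = 6), ovary (0.487 ± 0.0856, n = 3), brain (0.176 ± 0.0756, n = 6), cerebellum (0.164 ± 0.0765, n = 6) and heart (0.161 ± 0.181, n = 5). Colon and ovary did not overlap, nor did ovary and brain, while brain, cerebellum and heart did. *Dnah8* was the only heavy chain feature called lower in brain than in the average of the heart and colon groups, by 0.93 on the log2 scale (SE 0.28, edgeR adjusted p = 0.00525). Its brain mean lay below that of colon but not below that of heart. That call was lost without male heart replicate 1, when the log2 difference was -0.71 (adjusted p = 0.111). Spermatid markers summed to 0.117 to 32.8 FPKM across the colon libraries, and their part in the colon level was not tested. An antisense gene, *AC165951.2*, shares 443 of the counted bases and stood at 34.5 FPKM in testis and 0.163 in colon. Whether the counting used strand is not given in the sources used here.

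*Dnah5*, the gamma-type heavy chain of cilia, had the opposite standing. Testis libraries held 0.279, 0.308 and 0.287 FPKM, below every brain and cerebellum library. Brain libraries ranged from 0.590 to 1.33 FPKM with a median of 0.997, and cerebellum libraries from 0.570 to 1.21 with a median of 0.648. The 2 neural tissues overlapped, and neither overlapped with testis. *Dnah5* was lower in testis than in brain by 1.46 on the log2 scale (SE 0.32, edgeR adjusted p = 0.000228), the only heavy chain feature called in that direction. It was still 3.76 higher on the log2 scale in testis than in ovary (SE 0.42, edgeR adjusted p = 2.66e-08), and without ovary replicate 3, which held 28 of the 38 ovary counts, the difference was 4.90. Colon libraries held 0.102 to 0.202 FPKM. In heart 2 counts were found over all 5 libraries, 1 each in female replicate 1 and male replicate 1, which puts brain 818-fold above heart with an exact 95% counting interval of 226 to 6759.

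Within each library, the gamma-type pair therefore split by tissue. *Dnah8* made up 99.7% ± 0.0284 (SD, n = 3) of the summed FPKM of *Dnah5* and *Dnah8* in testis, 94.5% ± 3.80 (n = 3) in ovary and 84.5% ± 3.04 (n = 6) in colon. It made up 16.2% ± 5.20 (n = 6) in brain and 18.3% ± 7.82 (n = 6) in cerebellum. No testis, ovary or colon library fell below 79.1%, and no brain or cerebellum library rose above 28.3%. The share in heart, 96.0% to 100%, rests on as few as 4 counts in a library. The sizes depend on the length used, since *Dnah8* was counted on part of its exons: with reference exon lengths the shares were 98.8% in testis, 81.5% in ovary (69.0% to 88.5%), 57.2% in colon (47.9% to 64.6%), 5.32% in cerebellum and 4.55% in brain. These are lower limits, because reads outside the 6519 counted bases are missing from them while the reference exons, joined over all transcripts, span 26820 bases against 14583 in the transcript with the longest coding sequence. The coding sequences of the pair are 63.9% identical.

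**Figure D2:**
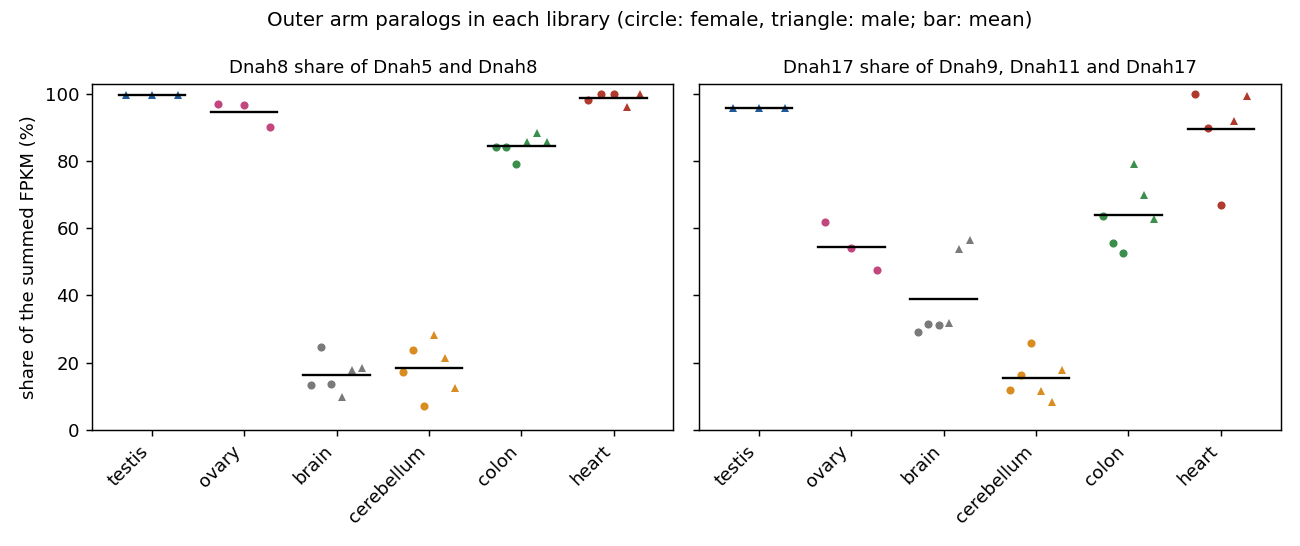
Share of the sperm-type paralog in the summed FPKM of the outer arm paralogs in each library, in percent, for *Dnah8* among *Dnah5* and *Dnah8* (left) and for *Dnah17* among *Dnah9*, *Dnah11* and *Dnah17* (right); bars are tissue means. Testis libraries sat at 99.7% and 95.8% on average, and brain libraries at 16.2% and 39.0%. In brain all *Dnah17* counts lay on its 3′ locus.

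*Dnah17*, the beta-type outer arm heavy chain of flagella, was next in level to *Dnah8* in testis. The testis libraries held 35.2, 33.3 and 36.4 FPKM over the 2 loci. Brain libraries ranged from 0.806 to 1.27 FPKM with a median of 1.09, cerebellum from 0.577 to 1.53 with a median of 0.790, and ovary held 0.825, 0.776 and 0.550. Colon libraries ranged from 0.315 to 0.791 and heart libraries from 0.227 to 0.487. Testis stood apart from all, by 21.8 times between its lowest library and the highest other, while each remaining neighbour in the order of tissues overlapped with the next. At the 3′ locus the log2 difference was 4.74 against brain (SE 0.24, edgeR adjusted p = 3.29e-15) and 5.74 against ovary (SE 0.34, edgeR adjusted p = 1.58e-13).

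The 2 loci of *Dnah17* did not behave alike. The 5′ locus held 1473, 1686 and 1783 counts in the testis libraries, 28.6 to 32.0 FPKM, and 7 counts in the 26 other libraries together. It was at 0 in every brain, cerebellum and ovary library, where 3 counts per library would have been at most 0.0919 FPKM. The lowest testis library was at least 202.6-fold higher than the highest such limit in any library. The 3′ locus held 11370 counts in testis and 2322 elsewhere. At the ratio of the loci in testis, 1009 counts would have fallen on the 5′ locus outside testis, if the same model was used there. That model holds 1811 exonic bases, of which 1093 lie in reference exons of *Dnah17*. The model of the 5′ locus begins at position -1462 relative to the RefSeq start, and the stretch with the X-box printed above lies inside its span but in none of its exons. On the 3′ locus, 93 bases overlap *Pgs1* on the other strand, which stood at 4.47 to 15.6 FPKM as a mean in every tissue. Its part in the *Dnah17* counts outside testis was not tested.

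*Dnah9* and *Dnah11*, the beta-type heavy chains of cilia, were not called higher in testis than in brain. *Dnah9* held 1.26, 1.09 and 1.29 FPKM in testis, 0.690 to 1.67 in brain with a median of 1.31, and 0.569 to 1.46 in cerebellum with a median of 0.874. All 3 tissues overlapped. The log2 difference between testis and brain was 0.24 (SE 0.37, edgeR adjusted p = 0.569), while testis was above ovary by 3.07 (SE 0.47, edgeR adjusted p = 3.91e-06). Ovary libraries held 0.104, 0.254 and 0.297 FPKM, colon libraries 0.0374 to 0.155, and heart libraries 0 to 0.0601. *Gm12296* overlaps the counted exons of *Dnah9* on the other strand over 495 bases. It averaged 0.216 FPKM in cerebellum, 0.197 in ovary, 0.165 in brain, 0.0991 in testis, 0.0220 in heart and 0.0145 in colon. Its part in the *Dnah9* counts was not tested.

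*Dnah11* had its highest level in cerebellum. Female cerebellum libraries held 3.55, 3.49 and 2.90 FPKM and male ones 4.61, 6.44 and 3.90. Female brain libraries held 0.809, 0.560 and 0.677 FPKM and male ones 1.01, 0.268 and 0.215. Every cerebellum library was above every brain library, and brain was lower by 2.69 on the log2 scale (SE 0.31, edgeR adjusted p = 1.77e-07). Testis held 0.304, 0.338 and 0.277 FPKM, within the range of brain, and the log2 difference from brain was -0.70 (SE 0.38, edgeR adjusted p = 0.0991). Without male brain replicate 3 that difference was -0.87 with an adjusted p of 0.035. Testis and ovary (0.403, 0.406 and 0.313 FPKM) overlapped, and the difference was not called (log2 0.36, SE 0.43, edgeR adjusted p = 0.485). Its counted exons overlap *Cdca7l* on the other strand over 642 bases. *Cdca7l* averaged 5.86 FPKM in ovary, 5.15 in testis, 1.61 in colon, 0.483 in cerebellum, 0.444 in brain and 0.355 in heart, and its part in the *Dnah11* counts was not tested.

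*Dnah17* made up 95.8% ± 0.0781 (SD, n = 3) of the summed FPKM of the 3 beta-type genes in testis, 54.5% ± 7.26 (n = 3) in ovary and 63.9% ± 9.69 (n = 6) in colon. In heart its share was 66.8% to 100%, from as few as 29 counts of the 3 genes in a library. In brain *Dnah9* had the highest mean share at 41.5% ± 6.62, near *Dnah17* at 39.0% ± 12.6. The *Dnah17* counts, 916 in brain and 257 in ovary, all lay on its 3′ locus there, with 0 on the 5′ locus. In cerebellum *Dnah11* led with 68.4% ± 11.6 (n = 6). With reference exon lengths *Dnah17* made up 88.1% in testis, 37.3% in colon, 28.1% in ovary, 17.8% in brain and 5.56% in cerebellum. *Dnah11* then had the highest mean share in ovary, at 45.5%, and in colon, at 41.05%. The 2 loci of *Dnah17* hold only 20.9% and 6.78% of its reference exons, by which its counts were then divided. Reads on the rest are missing from these shares. The coding sequences of *Dnah9* and *Dnah17* are 67.1% identical, those of *Dnah9* and *Dnah11* 62.3% and those of *Dnah11* and *Dnah17* 62.4%. The longest run of bases that *Dnah9* and *Dnah11* share is 29 bases, shown here because it bears on how well reads can be assigned.
Shared run of Dnah9 and Dnah11: caggatcactatgactggggacttcgtgc

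The 3 cilium-type outer arm genes also varied within brain. Ependymal and multiciliated cell markers summed to 56.0, 36.1 and 76.0 FPKM in the female brain libraries and 68.3, 35.2 and 22.0 in the male ones. Choroid plexus markers ran from 29.2 to 1596 FPKM in brain and from 1051 to 3968 in cerebellum. Male brain replicates 2 and 3, with the lowest *Dnah5*, *Dnah9* and *Dnah11*, also had the lowest ciliated cell sums, and with female brain replicate 2 the lowest choroid plexus sums. Choroid plexus markers moved with *Dnah11* between the tissues: their median sum was 3194 FPKM in cerebellum and 256.8 in brain, only male cerebellum replicate 1 lay within the brain range, and all 8 genes of the list were called lower in brain (log2 -2.82 to -1.25, edgeR). Cerebellum markers, which summed to 1283 to 2284 FPKM in cerebellum and 39.1 to 50.7 in brain, moved the same way without overlap, with all 4 genes called lower in brain (log2 -8.39 to -2.28, edgeR). Within cerebellum, male replicate 1 had the lowest choroid plexus sum (1051 FPKM) but the second highest *Dnah11* (4.61 FPKM). Of the 10 ciliated cell markers 1 was called lower in brain and none higher, and the sums of the list overlapped. Among choroid plexus markers, *Ttr*, the thyroid hormone carrier of that tissue, ranged from 1007 to 3816 FPKM in cerebellum and from 15.7 to 1535 in brain. The part of these cells in the levels of the 3 genes, and in that of *Dnah6* below, was not tested.

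**Figure D3:**
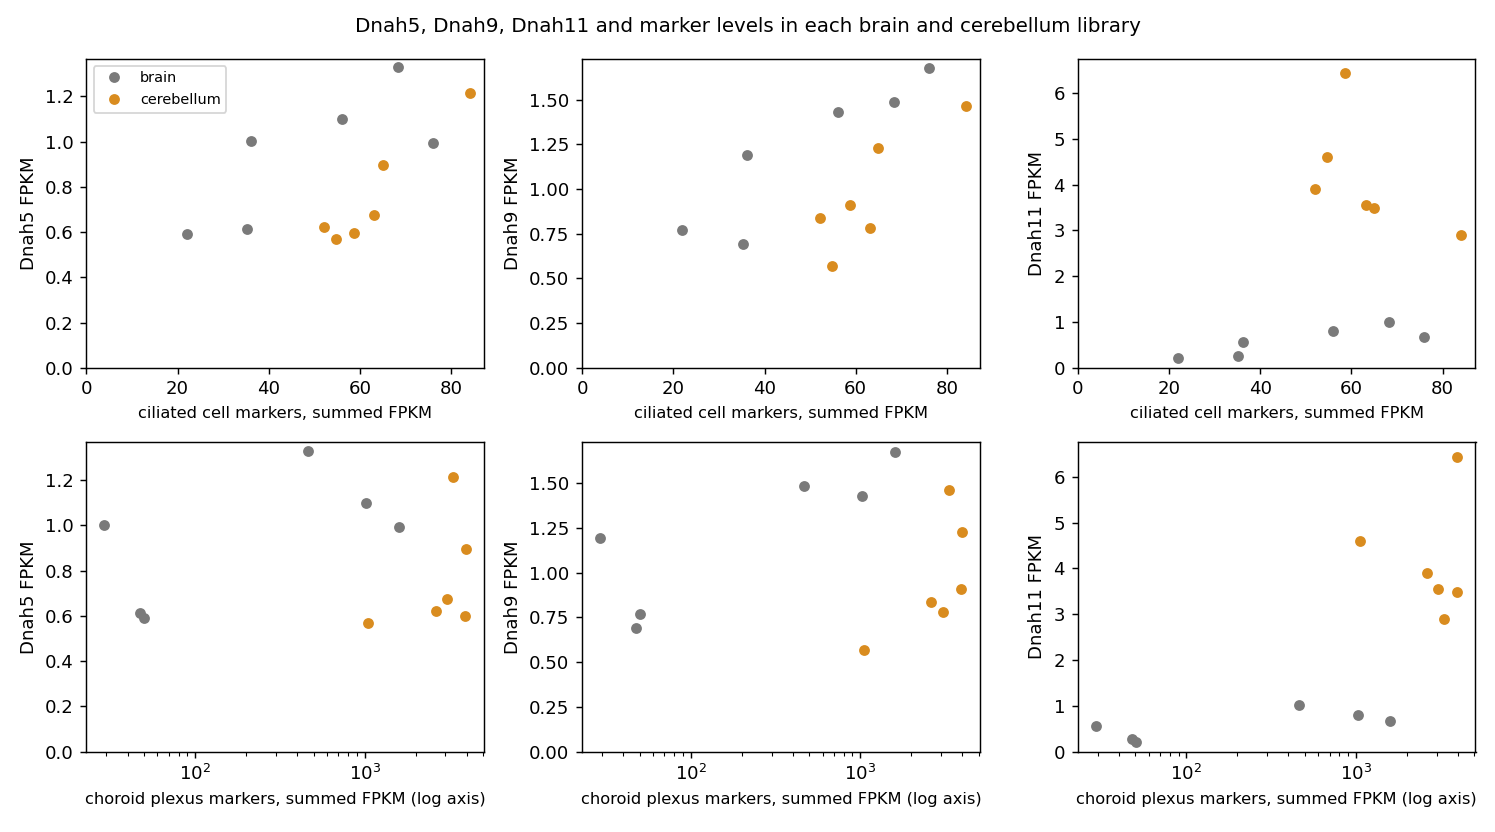
FPKM of *Dnah5*, *Dnah9* and *Dnah11* in each brain (grey) and cerebellum (orange) library against the summed FPKM of ciliated cell markers (top) and of choroid plexus markers (bottom, log axis). The cerebellum libraries lie at 2.90 to 6.44 FPKM of *Dnah11*, above brain at 0.215 to 1.01, and 5 of the 6 also lie above every brain library in the choroid plexus sum.

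Of the heavy chains of inner arm dynein f, *Dnah2* stood out by its level in ovary. Testis libraries held 13.8, 13.8 and 14.2 FPKM and ovary libraries 5.97, 9.18 and 7.82. No other library exceeded 0.756 FPKM, so that the gonads did not overlap with each other or with any further tissue. The log2 difference between testis and ovary was 1.49 (SE 0.39, edgeR adjusted p = 0.00189). It was 0.86 without TMM scaling (adjusted p = 0.0817), a change of scale that moved the median of all features from 0.15 to -0.38. Brain held 0.101 to 0.582 FPKM and testis was 5.83 above it on the log2 scale (SE 0.37, edgeR adjusted p = 4.62e-13). In heart, 6 counts were found in female replicate 3 and none in the other 4 libraries. *Dnah2* was called higher in ovary than in heart and colon (edgeR adjusted p = 6.36e-13), with a mean ovary level 42.0 times that of colon. Ciliated cell markers in the same ovary libraries summed to no more than 6.93 FPKM. The *Dnah2* counts come from a 3′ locus of 2469 bases with 16.3% of the reference exons, and the rest was not counted. In ovary the 3′ loci of *Dnah17* and *Dnah1* held 257 and 365 counts, and their 5′ loci 0 and 18. Whether the ovary level holds for the whole of *Dnah2* was not tested.

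*Dnah10*, the partner of *Dnah2*, did not share that ovary level. Testis libraries held 5.59, 6.17 and 5.96 FPKM and ovary libraries 0.0582, 0.211 and 0.249, from 3 to 20 counts. Brain libraries ranged from 0.0869 to 0.653 FPKM with a median of 0.559, and cerebellum libraries from 0.422 to 0.826 with a median of 0.595. Testis was separate from all, by 3.96 from brain (log2, SE 0.42, edgeR adjusted p = 7.32e-09) and by 5.64 from ovary (log2, SE 0.61, edgeR adjusted p = 1.67e-08), while each further tissue overlapped with the next in order. At their 3′ loci the pair thus differed in ovary, where *Dnah2* had 1372 counts and *Dnah10* 38. The difference between the 2 genes was not tested.

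Of the inner arm genes with a single heavy chain, *Dnah1*, *Dnah3* and *Dnah6* stood at 15.0 to 21.6 FPKM in testis as means. *Dnah1* held 20.9, 21.6 and 22.4 FPKM there and 1.87 to 2.74 in brain with a median of 2.28. Cerebellum libraries held 0.767 to 1.22 with a median of 0.882 and did not overlap with brain. At the 3′ locus, brain exceeded cerebellum by 1.63 on the log2 scale (SE 0.18, edgeR adjusted p = 1.29e-07), the only heavy chain feature called in that direction. At the 5′ locus the difference was -0.05 (SE 0.31, edgeR adjusted p = 1.0). Testis was above brain by 2.81 at the 3′ locus (log2, SE 0.20, edgeR adjusted p = 3.64e-12) and by 6.19 at the 5′ locus (log2, SE 0.34, edgeR adjusted p = 1.28e-13). Neuron markers summed to 914.8 to 1306 FPKM in brain and 575.6 to 865.3 in cerebellum, with 3 of 4 called higher in brain and 1 lower. Their part in the 3′ difference between brain and cerebellum was not tested.

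The 2 loci of *Dnah1* also differed in their distribution, in another way than those of *Dnah17*. The 5′ locus exceeded the 3′ locus in testis, by 1.82 to 2.10 times in FPKM. In brain the 5′ locus was at 0.0875 to 0.306 times the 3′ locus and in cerebellum at 0.305 to 0.880 times, and no library outside testis passed 1.09 times. The 5′ locus held 4835 counts in testis and 301 elsewhere, against 7617 and 3551 on the 3′ locus. For *Dnah17* the 5′ locus was at 0.738 to 0.861 times the 3′ locus in testis. An antisense gene, *Gm35823*, shares 126 bases with the 3′ locus and 118 with the 5′ locus and averaged 1.38 FPKM in brain and 0.401 in cerebellum. Its part in the 3′ difference was not tested. The model of the 5′ locus begins at position -8 relative to the RefSeq start of *Dnah1*.

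**Figure D4:**
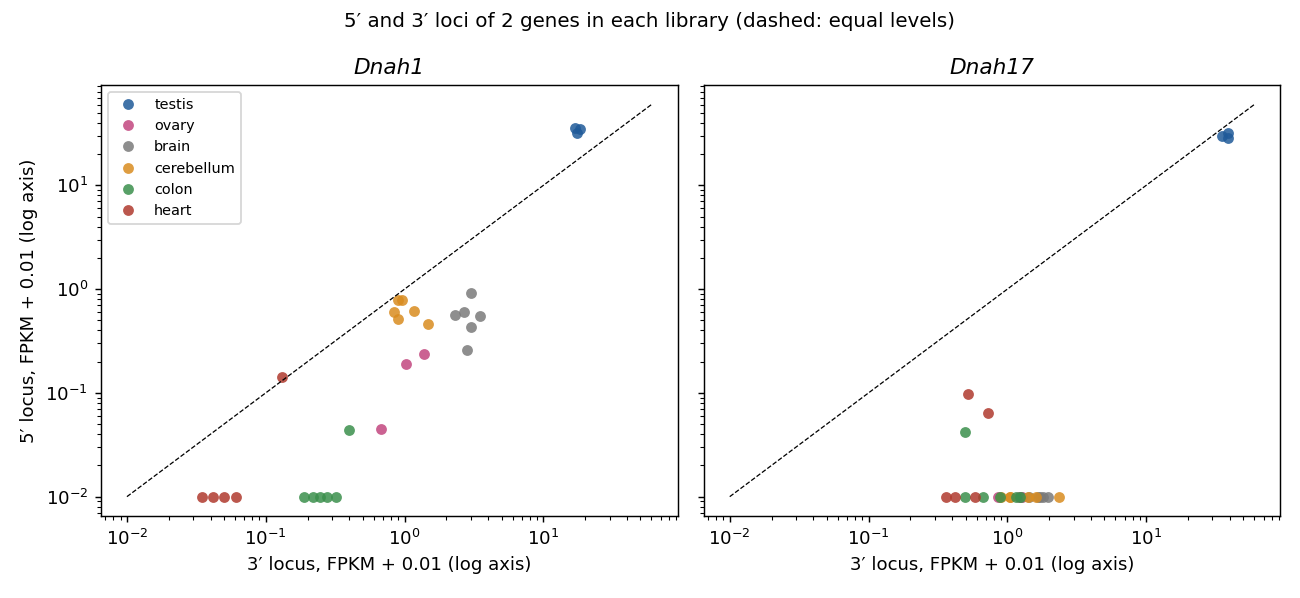
FPKM plus 0.01 of the 5′ locus against the 3′ locus of *Dnah1* (left) and *Dnah17* (right) in each library, on log axes; the dashed line marks equal levels. Testis lies on or near the line, at 31.7 to 35.6 FPKM for the 5′ locus of *Dnah1* and 28.6 to 32.0 for that of *Dnah17*, whereas the 5′ locus of *Dnah17* is at 0 in every brain, cerebellum and ovary library.

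*Dnah3* was nearly limited to testis and the neural tissues. Testis libraries held 19.7, 24.1 and 17.9 FPKM, brain libraries 0.155 to 0.969 with a median of 0.508, and cerebellum libraries 0.245 to 0.908 with a median of 0.501. Only 3 counts fell in the 3 ovary libraries, 5 in the 6 of colon and 4 in the 5 of heart. The testis level was 1567 times that of ovary, with an exact 95% counting interval of 536 to 7600. Testis exceeded brain by 5.52 on the log2 scale (SE 0.40, edgeR adjusted p = 4.19e-12), and brain and cerebellum overlapped.

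*Dnah6* held 15.8, 14.7 and 14.5 FPKM in testis. In contrast to *Dnah1*, it was lower in brain (0.467 to 1.76 FPKM, median 1.15) than in cerebellum (1.71 to 3.14, median 2.38), by 1.00 on the log2 scale (SE 0.27, edgeR adjusted p = 0.00722). The 2 neural ranges overlapped by a narrow margin, since the lowest cerebellum library at 1.71 was below the highest brain libraries at 1.74 and 1.76. Male brain replicates 2 and 3, at 0.508 and 0.467 FPKM, had the lowest *Dnah6* and were also low in the ciliated cell and choroid plexus sums given above, and all 8 choroid plexus markers were lower in brain. Testis was above brain by 3.98 (log2, SE 0.32, edgeR adjusted p = 3.08e-11) and above ovary by 5.02 (log2, SE 0.45, edgeR adjusted p = 3.64e-10). Ovary libraries held 0.345, 1.01 and 0.738 FPKM.

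**Figure D5:**
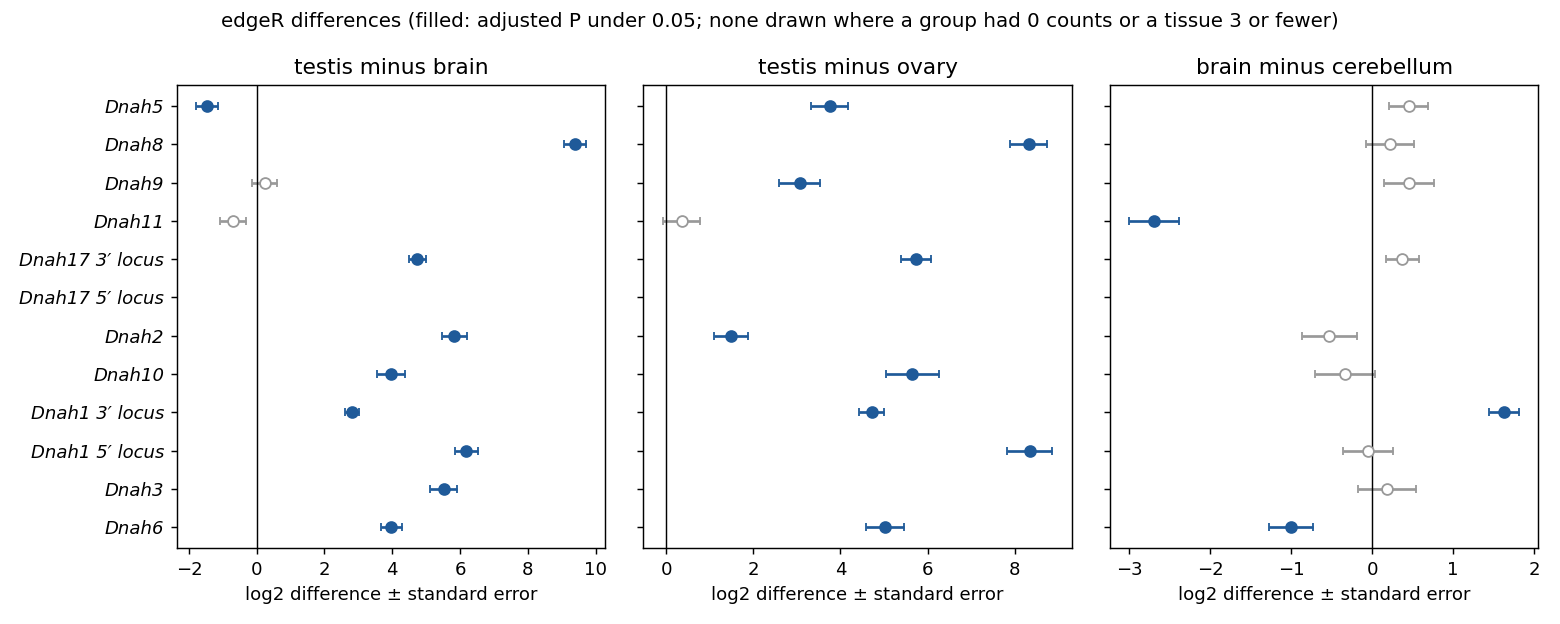
Log2 differences with standard errors from the edgeR fit for the heavy chain features in testis against brain, testis against ovary, and brain against cerebellum; filled points have an adjusted p under 0.05, and no point is drawn where a group had 0 counts or a tissue 3 or fewer. *Dnah8* lies 9.39 above brain in testis and *Dnah5* 1.46 below it, and in the neural comparison *Dnah11* lies 2.69 lower in brain and the 3′ locus of *Dnah1* 1.63 higher.

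Across the neural tissues, 1 heavy chain feature was called higher in brain than in cerebellum (*Dnah1*, 3′ locus), 2 lower (*Dnah11* and *Dnah6*) and 9 neither. Of all features, 15.3% were called higher and 10.8% lower. The features not called were *Dnah5* (log2 0.45), *Dnah9* (0.46), *Dnah8* (0.22), *Dnah3* (0.18), *Dnah10* (-0.33), *Dnah2* (-0.53), the 5′ locus of *Dnah1* and both loci of *Dnah17*. Without female cerebellum replicate 3, the 3′ locus of *Dnah17* was also called, at 0.57 (edgeR adjusted p = 0.0394).

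Between brain and the tissues without known motile cilia, 10 of the 12 features were called higher in brain than in heart and colon, 1 lower (*Dnah8*) and 1 neither (the 5′ locus of *Dnah17*). Background shares were 37.6% higher and 24.8% lower. The median log2 difference was 3.66, or 3.04 with groups without a count set to 3 counts, against 0.10 over all features. It was 5.83 for *Dnah5* (SE 0.31, edgeR adjusted p = 5.42e-15), 4.89 for *Dnah9* (SE 0.33, edgeR adjusted p = 8.65e-13) and 3.48 for *Dnah11* (SE 0.33, edgeR adjusted p = 5.85e-10). It was 4.52 for the 3′ locus of *Dnah1*, 5.15 for *Dnah3*, 2.85 for *Dnah6* and 1.20 for the 3′ locus of *Dnah17*, all called, and *Dnah2*, *Dnah10* and the 5′ locus of *Dnah1* were called with a group at 0. Without female heart replicate 1 or male heart replicate 1, *Dnah3* stood at 6.01 and 5.91. The values for *Dnah5* and *Dnah11* rest on heart libraries near 0, and were 6.59 and 4.61 without male heart replicate 1. The heart libraries held 0 to 0.0720 FPKM of *Dnah11*, and 0.143 to 0.206 was found in colon.

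Ovary was called higher than heart and colon for 7 of the 12 features and lower for none, with 25.5% and 16.4% of all features called. The median log2 difference was 1.94, or 0.99 with groups without a count set to 3 counts, against 0.04 over all features. The 7 were *Dnah9* (2.07, SE 0.41, edgeR adjusted p = 0.000199), *Dnah11* (2.43, SE 0.40, edgeR adjusted p = 1.73e-05), *Dnah6* (1.81, SE 0.36, edgeR adjusted p = 0.000195), *Dnah2*, *Dnah10* and both loci of *Dnah1*. Without male heart replicate 1, *Dnah11* stood at 3.54. *Dnah10* was not called without ovary replicate 2 or 3, with an adjusted p of 0.0616 to 0.106. *Dnah5*, *Dnah8*, *Dnah3* and both loci of *Dnah17* were not called. Oviduct markers summed to 118 to 230 FPKM in ovary and 757 to 1134 in colon, where 5 of the 10 genes reached 1 FPKM in every library. Their part in the ovary levels was not tested.

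No difference between the sexes was called in any heavy chain feature. In brain, cerebellum, heart and colon together, 0 of 12 features were called by edgeR (lowest adjusted p = 0.636), against 0.167% of all features. At an unadjusted p under 0.05 there was 1, *Dnah8*, by edgeR and 1 by DESeq2, among 2315 of 29911 features by edgeR and 3318 of 45451 by DESeq2. For a sex difference that varied between the tissues, 0 of 12 were called by edgeR (lowest adjusted p = 0.794), against 0.0167% of all features. At an unadjusted p under 0.05 there was none by edgeR and 1, *Dnah11*, by DESeq2, among 2026 of 29911 features by edgeR and 2698 of 45451 by DESeq2.

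The other parts of the axoneme were read from lists that were drawn up with earlier results of these data known. Beside the counts for testis against the other groups stand 40.6% of all features called higher and 26.7% called lower. All 5 other axonemal heavy chains were called higher in testis, among them *Dnah14* (15.0 FPKM in testis, 0.255 in brain) and *Dnah7a* (15.0 and 0.173). *Dnah7a* has near-identical copies, so its counts are uncertain. All 5 intermediate chains, which anchor the motor to the microtubule, were called higher as well, including *Dnai2* (31.8 FPKM in testis, 1.73 in brain, 3.22 in cerebellum) and *Dnai3* (41.5, 0.724 and 1.23). Of the 8 light chains, 6 were called higher and *Dynlt4* lower, at 0.0195 FPKM in testis against 1.42 in brain. The thioredoxin-domain protein gene *Nme8* held 70.8 FPKM in testis and at most 0.187 as a mean elsewhere, and *Dynlt5* held 88.6 and at most 0.671.

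The complexes that position and assemble the arms followed the same direction. All 6 genes of the outer arm docking complex were called higher in testis, with *Odad4* at 65.5 FPKM and *Odad2* at 18.1 in testis and 0.914 and 0.707 in brain. All 13 tested preassembly factors, which assemble the arms in the cytoplasm, were called higher. *Dnaaf1* averaged 296.8 FPKM in testis and at most 0.903 elsewhere, and *Dnaaf6* 8.28 in testis and at most 0.00673 elsewhere. Of 15 radial spoke genes 14 were called higher, and all 11 genes of the nexin-dynein regulatory complex and rulers and all 15 of the central apparatus. *Drc2* held 148 FPKM, *Drc7* 27.8, *Spag6l* 134 and *Spag6* 63.3 in testis.

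Among the spoke genes, a pair of paralogs split between testis and brain. The spoke head gene *Rsph6a* stood at 95.9 FPKM in testis and 0.153 in brain, while its paralog *Rsph4a* stood at 0.141 in testis and 2.82 in brain. Both were named by the rule for lists, and the pair was set side by side after their values were seen. The spoke gene *Cfap206* held 307 FPKM in testis and 2.12 in brain.

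Of cytoplasmic dynein, which carries cargo, 12 of 17 genes were called higher in testis and 3 lower, against the same 40.6% and 26.7% of all features. Of those called higher, *Dynlt1a* averaged 7.02 FPKM in testis and 0.449 in brain, and *Dynlt1f* 5.17 and 0.187. Of those called lower, *Dync1li1* averaged 8.73 FPKM in testis and 44.7 in brain, and *Dynlrb1* 59.6 and 271. The median log2 difference was 1.72, with groups without a count set to 3 counts. In the lists above it ran from 3.77 for the preassembly factors to 7.14 for the central apparatus. It was 5.74 for the intermediate chains and 3.83 for the regulators. Among 18 regulators of ciliary genes, 12 were called higher in testis and 1 lower. *Sox30*, a transcription factor of spermatids, held 97.5 FPKM in testis and *Deup1*, a gene of centriole amplification, 70.2, while *Myb*, the gene called lower, averaged 0.187 FPKM in testis and 5.69 in colon.

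In brain against heart and colon, where 37.6% of all features were called higher, the calls were 5 of 5 other heavy chains, 5 of 5 intermediate chains, 7 of 8 light chains, 6 of 6 docking genes, 9 of 13 preassembly factors, 12 of 15 spoke genes, 10 of 11 regulatory complex genes and 15 of 15 central apparatus genes higher. Cytoplasmic dynein had 14 of 17 higher and 3 lower, and the regulators had 12 of 18 higher and 3 lower. Of all features, 24.8% were called lower in this comparison. *Foxj1*, the forkhead regulator of motile cilia, averaged 4.94 FPKM in brain, 7.82 in cerebellum, 18.95 in testis and 0.0110 in heart. *Rfx4* averaged 7.95, 13.0, 20.4 and 0.0474 in the same tissues. Among spoke genes called higher, *Rsph4a* held 2.82 FPKM in brain and 0.0994 in colon, and *Dydc2* 1.17 and 0. Among preassembly factors called higher, *Dnaaf11* held 2.98 and 0.00468, and *Zmynd10* 1.26 and 0.205. *Dnajb13* (0.649 FPKM in brain, 2.52 in colon) and *Rsph3b* (3.27 in brain, 12.8 in heart) were called lower, as were the preassembly genes *Dnaaf5* and *Pih1d1*. In ovary against heart and colon, 25.5% of all features were called higher and 16.4% lower. There, 3 of 5 other heavy chains, 4 of 6 docking genes and 7 of 13 preassembly factors were called higher and none lower. With 1 gene called lower in each, 2 of 5 intermediate chains, 3 of 8 light chains, 6 of 15 spoke genes, 4 of 11 regulatory complex genes, 8 of 15 central apparatus genes and 6 of 18 regulators were higher, and of cytoplasmic dynein 7 of 17 were higher and 3 lower. Between brain and cerebellum, with 15.3% of all features called higher and 10.8% lower, every list had calls: 2 of 5 other heavy chains higher and 1 lower, 1 of 5 intermediate chains lower, 2 of 8 light chains, 2 of 6 docking genes, 2 of 13 preassembly factors and 2 of 15 central apparatus genes higher, 3 of 15 spoke genes higher and 1 lower, 3 of 11 regulatory complex genes higher and 2 lower, 5 of 17 cytoplasmic dynein genes higher and 2 lower, and 3 of 18 regulators higher and 3 lower.

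For each feature with at least 10 counts in at least 3 libraries outside testis, the protein-coding genes with the most similar levels over the 26 libraries outside testis were listed by Pearson's r of log2 CPM. The points share tissue, library and depth, so the values are descriptions. *Dnah10* was nearest to *Capsl* (0.910), *Ttc21a* and *Eno4*, and *Dnah6* to *Cfap100* (0.943), *Slc6a9* and *Cfap70*. *Dnah3* was nearest to *Ttll8* (0.963), *Calcoco2* and *Fut9*, and *Dnah1* at its 5′ locus to *Siah3* (0.975), *Unc5c* and *Iqca*. *Dnah5* was nearest to *Pak1* (0.982), *Tspan2* and *Tmem150b*, *Dnah9* to *Ctnna2* (0.964), *Map1b* and *Grid1*, and *Dnah1* at its 3′ locus to *Cstf2* (0.970), *Wasf1* and *Chd3*. *Dnah11* was nearest to *Rdh11* (0.967), *Steap2* and *Srgap1*, and *Dnah2* to *Gm21680* (0.924), *Unc119* and *Ctps2*. *Dnah8* was nearest to *Kif11* (0.924), *Pclaf* and *Ehf*. For *Dnah17* at its 3′ locus the values were lowest, with *Pnck* at 0.858, *Pgs1*, the gene that overlaps it on the other strand, at 0.852 and *Ppp2cb* at 0.852.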

How the data were processed

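RNA was ribo-depleted, and stranded libraries were sequenced. Per the submitters' processing notes, FastQC 0.11.8, MultiQC 0.9, HISAT2 2.0.5 and featureCounts 1.6.3 were used with mm10, and the authors deposited raw read counts per ENSEMBL gene or Iso-seq locus, from uniquely mapped reads. Whether reads were assigned by strand is not given in the sources used here. The deposited transcript models (coordinates) and the list pairing genes with loci gave exon lengths and members.

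Counts were fitted in a single model of the 10 groups with edgeR 4.0.16 in R 4.3.3 (quasi-likelihood test, TMM, filterByExpr), with Benjamini-Hochberg adjustment across the 29911 tested features. Total counts were 11742417 to 36194255 per library, and counting intervals and floors of 3 counts cover counting error only. Alternatives were DESeq2 1.42.0, no filter, no TMM, a replicate block, each library left out, and other lengths and library sizes. Scripts were tested on simulated data. Members were described in every tissue comparison. From each list, the 2 called genes per direction with the largest log2 difference were picked for naming. This was done in testis against the other groups and in brain against heart and colon. All are printed for the first comparison, but only some for the second. For likeness the 3 genes with the highest r were named. Genes singled out beyond this were chosen after their values were seen. Of 203 list genes 201 were matched (*Dnaaf9* was left unmatched after its values were seen, since the older symbol first given for it names another gene), and those whose locus joins another gene were left out. The members and lists were chosen with earlier results of these data known.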

Additional observations from a re-analysis of the deposited data

Results flagged for a closer look

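Among 35 sets of libraries of one tissue, 6 held a library far from the rest by Dixon's criterion, and chance gives about 1 in 20. In brain, *Dnah8* stood at 0.328 FPKM in female replicate 2, against 0.131 to 0.167 in the others. That library also had the highest spermatid marker sum of the brain libraries, at 1.42 FPKM. Male brain replicate 3 followed at 1.215 FPKM, but its *Dnah8* was at 0.132.

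Female heart replicate 3 stood apart for 3 genes. *Dnah8* held 0.479 FPKM there (0.0298 to 0.133 in the other heart libraries), *Dnah11* 0.0720 (0 to 0.0166) and *Dnah1* 0.124 (0.0188 to 0.0387). The same library had the highest heart sums of 9 of the 11 marker lists, namely multiciliated cell (1.87 FPKM), choroid plexus (102.0), oviduct (25.1), spermatocyte (36.1), spermatid (1.10), Sertoli and Leydig cell (10.8), neuron (7.96), cerebellum (1.78) and colon epithelium markers (0.670). Its sums of cardiomyocyte markers (9923 FPKM, against 14530 to 16940) and of the ovary list (127.0) were the lowest, and its TMM factor was 1.12 against 0.604 to 0.712 in the other heart libraries. The part of these differences in the values of the 3 genes was not tested.

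In colon, *Dnah10* held 0.262 FPKM in male replicate 3 (0.0558 to 0.102 in the others), and *Dnah6* held 0.552 in female replicate 1 (0.192 to 0.317). Female colon replicate 1 had the highest colon sums of multiciliated cell markers (4.09 FPKM) and spermatid markers (32.8).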

How the results depend on the processing

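Of the alternative values for the tests, 3146 kept direction and side of the threshold, 5 lost a call, 3 gained one and 14 changed sign, none of the last being called in either setting. Without TMM the sign changed for *Dnah11* in testis against ovary (log2 -0.29) and for *Dnah3* in ovary against heart and colon (0.15), and with DESeq2 for *Dnah8* in the latter (-0.0051). With single libraries left out, values in ovary against heart and colon ran from -0.54 to 1.36 for *Dnah5* (lowest without ovary replicate 3), from -1.07 to 0.51 for *Dnah3* and from -0.052 to 0.35 for *Dnah8*. In brain against cerebellum they ran from -0.29 to 0.40 for *Dnah3*, from -0.35 to 0.12 for the 5′ locus of *Dnah1* and from -0.0053 to 0.50 for *Dnah8*. The 5′ locus of *Dnah17* was not called in testis against ovary by DESeq2 (adjusted p = 0.0663), and its 3′ locus was called in ovary against heart and colon without TMM (0.80). The cause was not tested.

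Over all features, the sex difference gave 50 calls, 436 with DESeq2, 32 without TMM and 22 to 64 with single libraries left out. The sex difference by tissue gave 5 calls, 160 with DESeq2, 12 without the filter, 1 without TMM and 0 to 14 with single libraries left out. Same-numbered replicates did not deviate together (r -0.259 to 0.155), so the numbers were not taken as pairing. With the replicate block, calls numbered 19910, 21128, 18896, 18414, 12111, 7338, 44 and 1 over the 8 comparisons, and the heavy chain features called stayed at 11, 10, 11, 11, 7, 3, 0 and 0.

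Without TMM, higher and lower calls over all features were 9082 and 11522 in testis against ovary (11313 and 7919 with TMM), 12858 and 2658 in ovary against heart and colon (7628 and 4916; 6322 and 6686 with DESeq2), and 3281 and 4058 in brain against cerebellum (4564 and 3232). TMM library sizes gave testis means of 0.338 FPKM for *Dnah5*, 116.6 for *Dnah8*, 1.40 for *Dnah9*, 0.355 for *Dnah11*, 40.5 for *Dnah17*, 16.1 for *Dnah2*, 6.85 for *Dnah10*, 25.1 for *Dnah1*, 23.8 for *Dnah3* and 17.4 for *Dnah6*. Reference exon lengths, which leave out reads on exons that were not counted, gave 24.5 for *Dnah8*, 11.2 for *Dnah17*, 2.30 for *Dnah2*, 1.05 for *Dnah10*, 10.6 for *Dnah1*, 4.62 for *Dnah3* and 4.37 for *Dnah6*. *Dnah8* made up 99.3% (counts) and 98.8% (reference lengths) of its pair in testis and 7.54% and 4.55% in brain, and *Dnah17* 88.4% and 88.1% of its set in testis and 18.4% and 17.8% in brain. Leaving out a male heart library left 1, assumed to vary like the other groups. Few counts limit the heart, colon and ovary values.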
